A study of Mus musculus with 4 samples.

Results

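The constitutive proteasome genes were read from RNA-seq of whole mouse islets kept at low or high glucose. Members were the RefSeq coding entries whose symbol began with Psma to Psmg followed by a number, without the immunoproteasome subunits *Psmb8*, *Psmb9* and *Psmb10*, and the entry with the highest mean RPKM stood for a symbol with several entries. This gave 47 members among the 20614 coding symbols of the table. By role they were 8 genes of the 20S alpha ring, 8 of the 20S beta ring, 6 ATPases and 3 other subunits of the 19S base, and 8 subunits of the 19S lid. A further 7 were assembly chaperones, and 5 were activators or the inhibitor-type regulator PI31. The symbol rule also took *Psmc3ip*, a recombination factor that is no proteasome subunit, and *Psme2b*, an intronless copy of *Psme2*.

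The 20S core is a barrel of stacked alpha and beta rings in which the beta subunits cut proteins, and the 19S cap recognises ubiquitin-tagged proteins, unfolds them with its ring of ATPases and feeds them into the core. Dedicated chaperones help build the rings and the cap and leave the finished particle, while PA28 and PA200 are other caps that can open the core. In beta cells, which make large amounts of proinsulin, the proteasome is known as the last step of the removal of misfolded proteins from the endoplasmic reticulum, a route called ERAD.

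Islets came from male C57bl6 mice 3 months old, were pooled and kept overnight at 11 mM glucose, and all were starved for 2 h at 2.8 mM glucose. One group then stayed at 2.8 mM and the other went to 16.8 mM glucose, with 2 libraries (replicates 1 and 2) in each group. The series text gives 12 h for both groups, whereas the sample labels give 2 h at 2.8 mM and 12 h at 16.8 mM, so that a difference in glucose and a difference in time cannot be told apart by the labels alone. No line, deletion or transgene distinguished the groups. All islets came from pooled mice and nothing says that the libraries of a group came from separate mice or cultures, so p-values measure the spread between these libraries, which may be technical.

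The depth recovered from the table was 50790000 to 60700000 reads per library. The islet label held, since *Ins2* lay between 15943 and 30018 RPKM and *Gcg* between 1474 and 2155 RPKM. Of 6 beta cell markers 5 were higher at 16.8 mM, and their summed level was 20550 to 22897 RPKM at 2.8 mM and 40932 to 43707 RPKM at 16.8 mM. The 5 acinar markers in the table summed to 77.6 and 225 RPKM at 2.8 mM and 190 and 399 RPKM at 16.8 mM, so the libraries of a group differed in these as well as the groups. The 4 endothelial markers summed to at most 2.88 RPKM, the 4 stromal ones to at most 2.91 RPKM, and the 5 macrophage and leukocyte ones to at most 14.2 RPKM, mostly *Cd68* and *Lyz2*, with *Ptprc* at 0.0258 RPKM or less. These RPKM count introns as length, so a low sum does not mean few reads. *Kdr* held 1346 to 2396 reads in a library and *Col3a1* 918 to 1796. In a second fit on reads (voom, below) *Pecam1* and *Cdh5* were higher at 16.8 mM, with log2 fold changes of 0.80 and 0.71 (adjusted p = 0.0017 and 0.0078). The endothelial markers *Kdr* and *Plvap* did not pass in it. In whole islets a smaller number of cells of a type and less RNA per cell cannot be told apart, and the part of cell composition in the differences below was not tested.

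RPKM are reads scaled to the depth of the library and to the length of the gene in kilobases, and the kilobases here were those of the whole gene with its introns. A gene with long introns therefore has a low RPKM at the same number of reads. *Psmd14*, the lid's deubiquitinase, held 1974 to 2388 reads in a library and yet lay at 0.428 to 0.448 RPKM, because it spans 88.7 kb. Levels between genes were for this reason compared as RPKM over exon length, from the same reads. Whether reads in introns were counted was not tested. Any such reads would raise a value, while an exon length above that of the expressed transcript lowers it. *Psma1*, *Psma2* and *Psma3* held 3677, 3683 and 3679 reads in low glucose replicate 1, over exon lengths of 1201, 2668 and 2846 bp. Their mean levels were 50.9, 23.1 and 19.5. The order of genes and the medians of roles thus rest on these lengths, and the transcript expressed was not tested.

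On that scale of exon length the medians of the core and cap roles lay above those of the activators and the assembly chaperones. The 8 alpha ring genes had a median level of 29.8 and the 8 beta ring genes of 55.5, the 6 ATPases of 48.2, the 3 other base subunits of 29.7 and the 8 lid subunits of 35.0. The median was 20.2 for activators and PI31 and 12.5 for the 7 assembly chaperones. The highest levels were those of *Psmb4* at 83.3, *Psma7* at 79.7 and *Psmd13* at 75.0, and the ranges of these 3 genes over the 4 libraries met, so their order was not resolved. Of the 46 pairs of neighbours in the order of levels, the ranges met in 42.

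Some members were nearly silent. *Psma8*, the alpha subunit of the testis, had 2 and 4 reads at 2.8 mM and 6 and 9 at 16.8 mM. *Psmb11*, the beta subunit of the thymus, held 1 and 3 reads at 2.8 mM and 3 and 4 at 16.8 mM. Both are the tissue-restricted forms, and at such numbers no difference between the groups could be read. *Psmc3ip* stood at a level of 1.41.

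**Figure D1:**
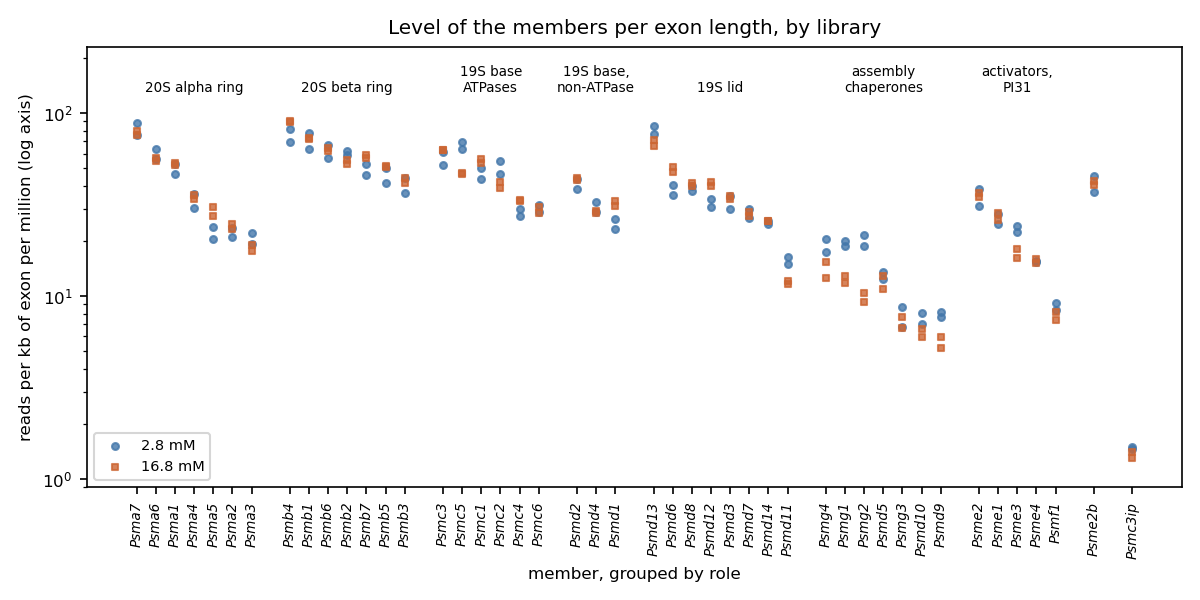
Level of the members as RPKM over exon length (y axis, log scale) by role and gene (x axis), without *Psma8* and *Psmb11*, whose levels were under 1. Circles are the 2 libraries at 2.8 mM and squares the 2 libraries at 16.8 mM glucose, and the assembly chaperones sit low, from 6.77 for *Psmd9* to 16.4 for *Psmg4*.

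*Psme2b* was the highest member by deposited RPKM, with 45.4 and 37.1 RPKM at 2.8 mM and 42.6 and 40.3 RPKM at 16.8 mM. It is a single exon of 837 bp that is 96.2% identical to the *Psme2* transcript over 840 aligned positions. Its reconstructed reads were 1.01 to 1.04 times those of *Psme2* in each of the 4 libraries, so reads of one may stand in the value of the other and its level is uncertain. It was left out of sums over members.

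Most proteasome genes did not pass the test between the glucose concentrations. Of the 39 members whose mean reached 1 RPKM, 2 were higher at 16.8 mM (*Psmd12* and *Psma5*) and 4 were lower (*Psmg2*, *Psmg1*, *Psmc5* and *Psme3*), while 33 did not pass (limma, Benjamini-Hochberg adjusted p under 0.05). Of all 7867 transcripts tested, 10.7% were higher and 22.8% lower. The members' own shares were 5.13% higher and 10.3% lower. The median log2 fold change was 0.03 over the members against -0.11 over all transcripts tested, and the median size of a change without its sign was 0.12 against 0.23. Without 2.8 mM replicate 2 the median of the members was -0.08, and without 2.8 mM replicate 1 it was 0.15, so its sign rests on single libraries.

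The 8 members under the minimum were *Psma8*, *Psmb11*, *Psmd9*, *Psmd11*, *Psmd14*, *Psmg4*, *Psme4* and *Psmc3ip*. Most of them were short of it through the length of their introns and not through few reads, and 6 of them could be read in a second fit, by voom in limma, which took the reads rebuilt from RPKM, span and depth. That fit tested 45 members and put 5 higher and 8 lower, beside 13.4% higher and 29.2% lower of 18282 transcripts. With each library centred on its median, 9 members were higher and 5 lower, beside 21.1% and 26.7% of all transcripts, and among all calls the share that was higher went from 31.9% to 44.1%. With the 10 highest transcripts left out of the library size, 21 members were higher and 2 lower, beside 33.4% and 9.81% of all transcripts, and the higher share of all calls was 77.3%. That scaling raised the median of all transcripts by 0.25 to 0.14, and the members' median lay above it by 0.18.

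**Figure D2:**
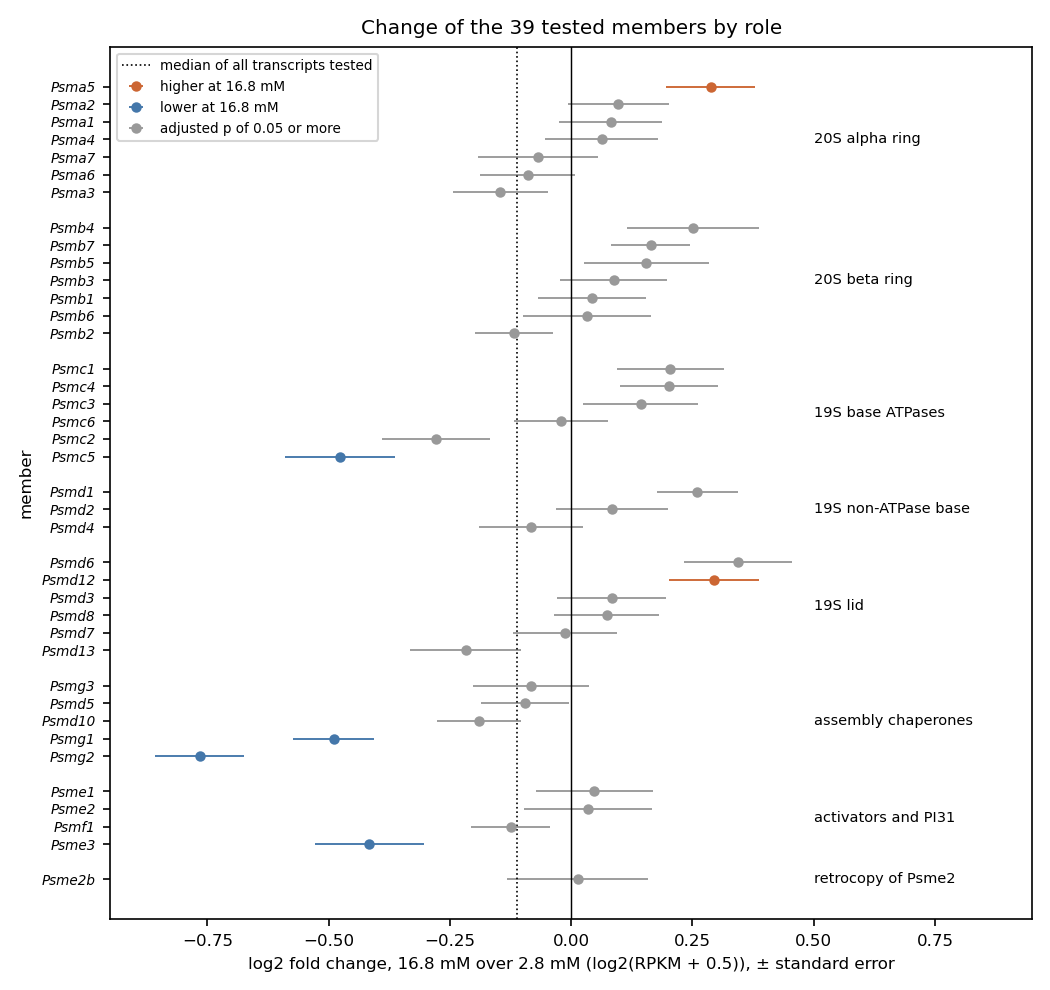
Log2 fold change between 16.8 mM and 2.8 mM glucose (x axis, on the log2(RPKM + 0.5) scale) of the 39 tested members (y axis) by role, with bars of ± 1 standard error. The dotted line is the median of all transcripts tested, -0.11, and the 5 tested chaperones all lie left of 0.

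In the deposited values, both 16.8 mM libraries lay above both 2.8 mM libraries in 11 of the 39 tested members and below both in 10, beside 22.2% and 48.3% of all transcripts tested. Over all 47 members these counts were 12 and 14, and in 21 the groups overlapped. These counts take in the 8 untested members, for which no share over all transcripts was taken, and *Psma8*, counted as above, had only 2 to 9 reads. Replicate 1 stood above replicate 2 in 45 of the 47 members at 2.8 mM and in 40 at 16.8 mM. At 2.8 mM the median difference between the replicates was 0.16 on the log2 scale for the members and 0.09 for all transcripts, which is larger than the median change of the members between the groups.

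The regions before the start of 5 of the 6 members past the threshold are shown next, 250 bases each, from RefSeq on GRCm38.p6, to show beside the changes what sequence each of these genes starts from. Capitals mark matches, on either strand, to the core of the antioxidant response element that NRF1 and NRF2 bind (TGACNNNGC or TGAGNNNGC), to CCAAT, to TGACGTCA or to CACGTG.
*Psmd12* (chr11:107479278-107479527, plus strand): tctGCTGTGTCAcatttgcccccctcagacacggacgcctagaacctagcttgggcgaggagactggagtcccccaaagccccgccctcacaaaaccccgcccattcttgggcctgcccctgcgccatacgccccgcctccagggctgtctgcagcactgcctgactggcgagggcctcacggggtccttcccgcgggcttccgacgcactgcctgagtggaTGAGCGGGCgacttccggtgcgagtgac
*Psma5* (chr3:108256676-108256925, plus strand): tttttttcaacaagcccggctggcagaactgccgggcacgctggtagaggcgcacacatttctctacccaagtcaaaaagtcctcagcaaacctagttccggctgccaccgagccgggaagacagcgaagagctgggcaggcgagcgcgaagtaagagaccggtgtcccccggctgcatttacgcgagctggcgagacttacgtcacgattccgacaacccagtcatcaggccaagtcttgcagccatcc
*Psmc5* (chr11:106255935-106256184, plus strand): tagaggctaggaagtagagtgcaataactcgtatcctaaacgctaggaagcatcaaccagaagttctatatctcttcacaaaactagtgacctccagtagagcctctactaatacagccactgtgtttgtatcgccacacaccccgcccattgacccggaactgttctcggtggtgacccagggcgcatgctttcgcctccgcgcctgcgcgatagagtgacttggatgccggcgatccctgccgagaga
*Psme3* (chr11:101315963-101316212, plus strand): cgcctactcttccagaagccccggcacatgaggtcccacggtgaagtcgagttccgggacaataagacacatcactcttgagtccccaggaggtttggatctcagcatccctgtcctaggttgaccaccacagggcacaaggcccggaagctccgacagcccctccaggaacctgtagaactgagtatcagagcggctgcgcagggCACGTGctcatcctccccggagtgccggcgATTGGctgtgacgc
*Psmg1* (chr16:95990961-95991210, minus strand): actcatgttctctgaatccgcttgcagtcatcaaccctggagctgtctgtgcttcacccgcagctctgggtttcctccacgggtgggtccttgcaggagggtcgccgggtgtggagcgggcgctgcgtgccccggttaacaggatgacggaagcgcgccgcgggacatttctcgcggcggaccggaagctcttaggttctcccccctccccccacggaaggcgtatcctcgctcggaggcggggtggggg
*Psmd12* carried both forms of the antioxidant core, 247 and 28 bases before its start. In *Psma5* the only match began 8 bases after the start and is not part of what is shown. *Psme3* held CACGTG and CCAAT 44 and 14 bases before the start, and *Psmc5* and *Psmg1* held no match. A match is a description of letters and not a bound site.

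Across the members, 39 of 47 had an entry in the promoter table, of 300 bases around the start. TGACNNNGC was found in 6 of the 39 and in 14.0% of all 27025 symbols, and TGAGNNNGC in 13 of the 39 and in 19.8% of all symbols. Either form stood in 17 members, 43.6%, beside 30.8% of all symbols, and 2 of these 17 were the members higher at 16.8 mM. CCAAT was found in 14 members, 35.9% beside 41.1%, and CACGTG in 3, 7.69% beside 8.09%. TGACGTCA was in 0 of the 39 and in 2.03% of all symbols. Over the 4686 symbols tested here, the shares were 17.1% and 22.0% for the separate antioxidant forms and 34.8% for either, 43.1% for CCAAT, 13.1% for CACGTG and 4.46% for TGACGTCA.

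The alpha ring, which gates the core, had 7 tested genes. Of these 1 was higher, 14.3% beside 10.7% of all transcripts, and 0 lower, beside 22.8%. *Psma5* stood at 1.28 and 1.10 RPKM at 2.8 mM and at 1.65 and 1.47 RPKM at 16.8 mM, on 1320 to 2311 reads. Both 16.8 mM libraries were above both 2.8 mM libraries, with a log2 fold change of 0.29 (SE 0.09, adjusted p = 0.049, limma). Without 2.8 mM replicate 2 or 16.8 mM replicate 1 it no longer passed (limma adjusted p = 0.25 and 0.12). The gene lies on chromosome 3 from 108059844 to 108082892 (NCBIM37, plus strand, 9 exons), and 60 bp of its span overlap an antisense transcript.

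The other 6 alpha genes had log2 fold changes of -0.15 to 0.10. *Psma7*, the most abundant of the ring, was at 13.3 and 11.4 RPKM at 2.8 mM and at 12.0 and 11.5 RPKM at 16.8 mM, and its groups overlapped. *Psma3* was below in both 16.8 mM libraries, at 2.49 and 2.31 against 2.90 and 2.52 RPKM, a log2 fold change of -0.15 (SE 0.10, adjusted p = 0.28, limma).

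Of the 7 tested beta ring genes 0 passed in limma in either direction, beside 10.7% higher and 22.8% lower of all transcripts. Also at an unadjusted p under 0.05 there were 0. In voom 1 was higher and 0 lower, beside 13.4% and 29.2% of all transcripts. With libraries centred 2, *Psmb4* and *Psmb7*, were higher and 0 lower, beside 21.1% and 26.7%. The log2 fold changes ran from -0.12 to 0.25 in limma. *Psmb4*, a structural subunit, was at 33.9 and 28.8 RPKM at 2.8 mM and at 37.6 and 37.1 RPKM at 16.8 mM, so the groups were apart, with a log2 fold change of 0.25 (SE 0.14, adjusted p = 0.19, limma). In voom it passed, at an adjusted p of 0.041. The 3 catalytic subunits are *Psmb5*, *Psmb6* and *Psmb7*, with chymotrypsin-like, caspase-like and trypsin-like activity. *Psmb5* was at 11.3 and 9.29 RPKM at 2.8 mM and 11.4 and 11.5 RPKM at 16.8 mM. *Psmb7* was at 1.09 and 0.952 RPKM against 1.18 and 1.22 RPKM. In both genes the nearest libraries of the groups lay closer together than the 2.8 mM replicates did. In *Psmb7* the group means, 1.02 and 1.20 RPKM, lay further apart than those replicates. *Psmb6* overlapped, at 23.6 and 20.1 against 22.8 and 21.8 RPKM, and the adjusted p of the 3 lay between 0.16 and 0.87 (limma).

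The 6 ATPases that form the ring of the 19S base did not change together. *Psmc5* (Rpt6) was at 13.1 and 11.9 RPKM at 2.8 mM and at 8.77 and 8.92 RPKM at 16.8 mM. Its high glucose libraries lay close together and well below both others, with a log2 fold change of -0.48 (SE 0.11, adjusted p = 0.019, limma). It was the 1 ATPase of 6 that passed in this fit, 16.7% lower beside 22.8% of all transcripts. With libraries centred, 2 of the 6 were higher, *Psmc1* and *Psmc4*, and 2 lower, *Psmc2* and *Psmc5*. The shares of all transcripts were then 21.1% higher and 26.7% lower. Without 16.8 mM replicate 1 or 2 the adjusted p of *Psmc5* was 0.077 and 0.081 at log2 fold changes of -0.47 and -0.49, and without the 10 highest transcripts in the library size it was 0.0998 at -0.19. It lies on chromosome 11 from 106117468 to 106124434 (NCBIM37, plus strand, 11 exons).

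*Psmc2* (Rpt1) also had both 16.8 mM libraries below both others, at 5.25 and 4.49 RPKM against 4.07 and 3.77 RPKM. It did not pass in limma (log2 fold change -0.28, SE 0.11, adjusted p = 0.093) and passed in voom (adjusted p = 0.017). *Psmc1*, *Psmc3* and *Psmc4* had both 16.8 mM libraries above both others, at log2 fold changes of 0.20, 0.14 and 0.20 and adjusted p of 0.19, 0.38 and 0.16 (limma). A stretch of 4579 bp of *Psmc3* overlaps *Slc39a13* on the other strand, which makes its value less certain. *Psmc6* overlapped, at 3.44 and 3.16 against 3.38 and 3.11 RPKM. The 6 proteins stand in equal number in the ring, and their transcripts ranged from -0.48 to 0.20.

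Of the other 3 base subunits 0 passed in limma, beside 10.7% higher and 22.8% lower of all transcripts. One gene, *Psmd1*, had an unadjusted p under 0.05. It was higher in voom and with libraries centred, beside 13.4% and 21.1% of all transcripts. *Psmd1* (Rpn2), a scaffold of the base, was at 1.10 and 0.973 RPKM at 2.8 mM and at 1.29 and 1.39 RPKM at 16.8 mM. The groups did not overlap, and its log2 fold change of 0.26 (SE 0.08, adjusted p = 0.050, limma) lay just outside the threshold, which it passed in 9 of 18 alternatives. *Htr2b* lies within its span at 0.116 RPKM. *Psmd2* (Rpn1) and *Psmd4* (Rpn10), both receptors for ubiquitin or its carriers, had log2 fold changes of 0.08 and -0.08 with adjusted p of 0.60 and 0.58 (limma).

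In the lid 1 of 6 tested subunits was higher, 16.7% beside 10.7% of all transcripts, and 0 were lower, beside 22.8%. *Psmd12* (Rpn5) was at 2.65 and 2.41 RPKM at 2.8 mM and at 3.29 and 3.14 RPKM at 16.8 mM, with the groups apart and a log2 fold change of 0.30 (SE 0.09, adjusted p = 0.048, limma). It rested on 3107 to 4965 reads, and the call was lost without any 1 of the libraries, since adjusted p was 0.096 and 0.26 without 2.8 mM replicate 1 or 2 and 0.15 and 0.093 without 16.8 mM replicate 1 or 2 (limma). The gene lies on chromosome 11 from 107340842 to 107365676 (NCBIM37, plus strand, 11 exons).

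*Psmd6* (Rpn7) had the largest positive log2 fold change of the tested members, 0.34 (SE 0.11), from 6.29 and 5.61 to 7.94 and 7.43 RPKM, and missed the threshold at an adjusted p of 0.051 (limma). It passed in 12 of 19 alternatives, voom among them (adjusted p = 0.0049). *Psmd13* (Rpn9) was at 10.1 and 9.19 RPKM at 2.8 mM and at 8.55 and 7.93 RPKM at 16.8 mM (log2 fold change -0.22, SE 0.11, adjusted p = 0.18, limma). *Psmd11* (Rpn6), which clamps the lid to the core, was under the minimum, at 1.05 and 0.949 RPKM against 0.774 and 0.746 RPKM. In voom, on 1691 to 2728 reads, its log2 fold change was -0.39 (SE 0.10, adjusted p = 0.0041). *Psmd14* (Rpn11) had a log2 fold change of 0.02 in voom (SE 0.10, adjusted p = 0.90). *Psmd3*, *Psmd7* and *Psmd8* had log2 fold changes of 0.08, -0.01 and 0.07 in limma.

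Core and cap together, 29 of 33 genes were tested, with 2 higher and 1 lower, 6.90% and 3.45% beside 10.7% and 22.8% of all transcripts. Of the 29, 24 lay above the median change of all transcripts. The reads of the 33 genes, scaled to depth but not to length (RPM), summed to 2146 and 1891 RPM at 2.8 mM and to 2105 and 2037 RPM at 16.8 mM. The groups thus overlapped, and the ratio of the means was 1.03.

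Of the assembly chaperones, 2 of 5 tested were lower at 16.8 mM, beside 22.8% of all transcripts, and in voom 4 of 7 were lower, beside 29.2%. All 5 tested had a negative log2 fold change, except that *Psmd5*, *Psmd10* and *Psmg3* turned positive, to 0.13, 0.02 and 0.16, under the library size without the 10 highest transcripts, and *Psmg3* came to 0.00 when libraries were centred. None was higher in limma, also at an unadjusted p under 0.05, or in voom. Their summed reads were 128 and 115 RPM at 2.8 mM and 92.7 and 81.0 RPM at 16.8 mM, a ratio of 0.72, with both 16.8 mM libraries below both others. In 3 of the 5 tested genes the groups were apart, each time with 16.8 mM below, beside 48.3% of all transcripts tested. With the untested *Psmd9* and *Psmg4* this held in 5 of 7, for which no share over all transcripts was taken.

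*Psmg2* (PAC2) was the member that changed most. It stood at 2.22 and 1.94 RPKM at 2.8 mM and at 1.07 and 0.962 RPKM at 16.8 mM, on 614 to 1632 reads. The 16.8 mM level was 0.49 of the other, with a log2 fold change of -0.77 (SE 0.09, adjusted p = 0.0016, limma) and of -1.03 in voom. It has 7 exons and lies on chromosome 18.

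*Psmg1* (PAC1), the partner with which PAC2 forms a dimer that guides the alpha ring, stood at 1.89 and 1.78 RPKM at 2.8 mM and at 1.22 and 1.11 RPKM at 16.8 mM. Its ratio was 0.63 and its log2 fold change -0.49 (SE 0.08, adjusted p = 0.0057, limma). The gene lies on chromosome 16 from 96201540 to 96212567 (NCBIM37, minus strand, 7 exons). These 2 genes were below the threshold of 0.05 in each alternative that tested them, 18 for *Psmg2* and 19 for *Psmg1*, with the smallest changes at -0.54 and -0.26.

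The other alpha ring dimer is made of PAC3 and PAC4. *Psmg3* (PAC3) overlapped, at 2.25 and 1.74 against 1.97 and 1.73 RPKM, on 285 to 428 reads. *Psmg4* (PAC4) was under the minimum, at 0.742 and 0.635 against 0.557 and 0.457 RPKM, and its log2 fold change in voom was -0.44 (SE 0.14, adjusted p = 0.019).

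The base of the cap has chaperones of its own. *Psmd9* (p27) was under the minimum, at 0.970 and 0.912 against 0.709 and 0.614 RPKM, and in voom its log2 fold change was -0.51 (SE 0.12, adjusted p = 0.0019). *Psmd10* (gankyrin) was at 1.40 and 1.22 against 1.14 and 1.03 RPKM, with a log2 fold change of -0.19 (SE 0.09, adjusted p = 0.13, limma). *Psmd5* (S5b) overlapped, at 1.46 and 1.33 against 1.37 and 1.18 RPKM.

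**Figure D3:**
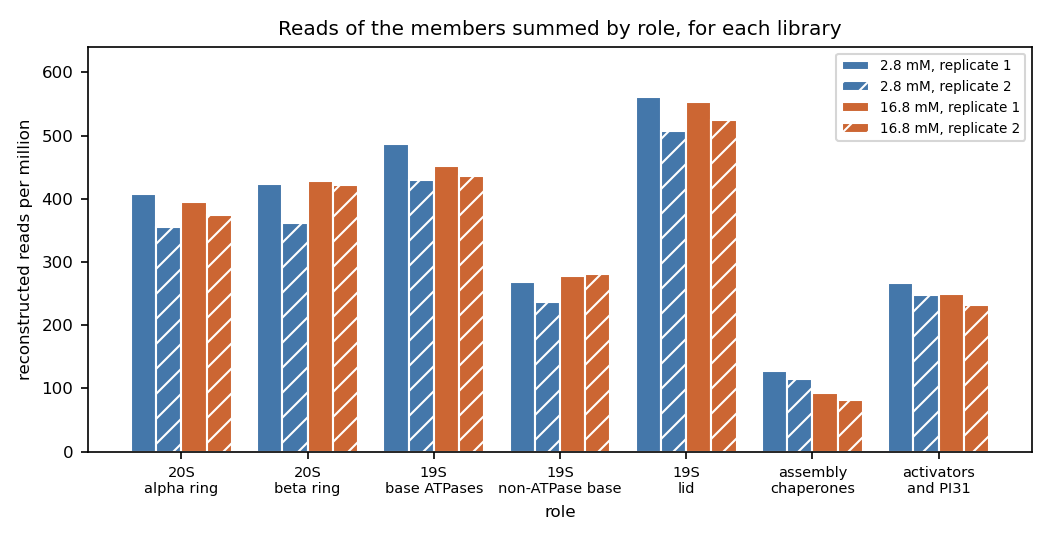
Reads of the members summed by role (x axis) in reconstructed reads scaled to depth (RPM, y axis), 1 bar for each of the 4 libraries. The chaperones' bars at 16.8 mM, 92.7 and 81.0, lie below those at 2.8 mM, 128 and 115. Those of the non-ATPase base subunits at 16.8 mM, 278 and 281, lie above those at 2.8 mM, 268 and 237. The bars of the alpha ring, the beta ring, the ATPases, the lid and the activators with PI31 overlap between the groups.

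The activators cap the core in place of the 19S particle. Among activators and PI31 together, 1 of 4 tested genes was lower, 25% and so near the 22.8% of all transcripts. *Psme3* (PA28 gamma), the nuclear form, was at 8.78 and 8.12 RPKM at 2.8 mM and at 6.54 and 5.88 RPKM at 16.8 mM. The groups were apart, with a log2 fold change of -0.42 (SE 0.11, adjusted p = 0.029, limma). Without 2.8 mM replicate 1 or 16.8 mM replicate 2 adjusted p was 0.088 and 0.18, and without the 10 highest transcripts in the library size it was 0.20 at a log2 fold change of -0.13 (limma). The gene lies on chromosome 11 from 101177527 to 101184851 (NCBIM37, plus strand, 11 exons).

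*Psme1* and *Psme2*, the interferon-induced PA28 alpha and beta, overlapped between the groups, with log2 fold changes of 0.05 and 0.03 (adjusted p = 0.78 and 0.86, limma). Both lie on chromosome 14 with 5.9 kb between them. *Psme4* (PA200) was under the minimum at 0.901 to 0.957 RPKM, although it held 4974 to 6310 reads, and its log2 fold change in voom was 0.02. *Psmf1* (PI31) was at 1.36 and 1.25 against 1.22 and 1.10 RPKM, with a log2 fold change of -0.13 (SE 0.08, adjusted p = 0.27, limma).

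**Figure D4:**
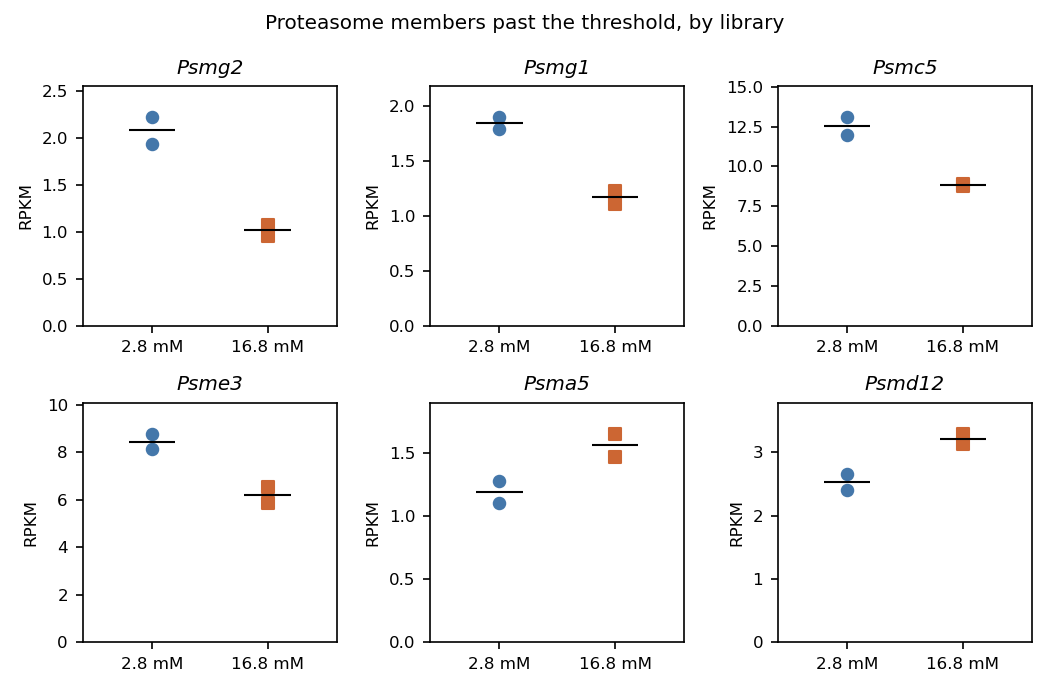
RPKM (y axis, from 0) of the 6 members past the threshold in each library, with circles for 2.8 mM, squares for 16.8 mM and a line at the mean of the 2 libraries. In each panel the groups are apart, and *Psmg2* shows the widest gap relative to its level, from a mean of 2.08 to 1.02 RPKM.

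Beside the members, other genes of the pathway were read from the same fit. Of the 3 immunoproteasome subunits, which replace the catalytic ones under interferon, *Psmb8* was higher, from 2.57 and 2.35 to 3.87 and 3.36 RPKM (log2 fold change 0.47, SE 0.10, adjusted p = 0.014, limma). *Psmb9* was at 1.49 and 1.20 RPKM at 2.8 mM and at 1.22 and 0.854 RPKM at 16.8 mM, with overlapping groups (log2 fold change -0.27, adjusted p = 0.15, limma). *Psmb10* had a log2 fold change of 0.12 (adjusted p = 0.55, limma). Of 6 tested genes of the interferon response and antigen presentation, 0 passed in limma, beside 10.7% higher and 22.8% lower of all transcripts. At an unadjusted p under 0.05, 1 was lower. Voom put 1 of 8 higher and 1 lower, beside 13.4% and 29.2% of all transcripts. With libraries centred 2 were higher and 0 lower, beside 21.1% and 26.7%.

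Genes that control proteasome transcription passed in both directions. *Nfe2l1*, the factor NRF1 that raises proteasome genes when the particle falls short, stood at 51.2 and 45.2 RPKM at 2.8 mM and at 24.3 and 24.3 RPKM at 16.8 mM. The groups were far apart, with a log2 fold change of -0.97 (SE 0.13, adjusted p = 0.0024, limma) that passed in every alternative. *Ddi2*, the protease that cuts NRF1 into its active form, was lower as well, from 1.24 and 1.28 to 0.925 and 0.848 RPKM (log2 fold change -0.35, adjusted p = 0.015, limma), a call that was lost without the 10 highest transcripts in the library size (-0.14, adjusted p = 0.090). *Maff*, a small partner of NRF1 on DNA, was higher, from 1.29 and 1.17 to 2.67 and 2.09 RPKM (log2 fold change 0.73, adjusted p = 0.0041, limma). Of 6 tested genes of this list 1 was higher and 2 were lower, 16.7% and 33.3% beside 10.7% and 22.8% of all transcripts.

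Of 11 tested partners of the proteasome, 1 was higher and 2 were lower, 9.09% and 18.2% beside 10.7% and 22.8% of all transcripts. The higher one was *Pomp*, the factor that matures the core, from 2.68 and 2.21 to 3.25 and 3.24 RPKM, with a log2 fold change of 0.35 (SE 0.11, adjusted p = 0.041, limma). Its change had the sign opposite to those of *Psmg1* and *Psmg2*, which act in the same assembly line, and adjusted p was 0.27 without 2.8 mM replicate 2 and 0.066 and 0.078 without 16.8 mM replicate 1 or 2. The lower ones were the ubiquitin shuttles *Ubqln4* and *Ubqln1*, with log2 fold changes of -0.38 and -0.30 (adjusted p = 0.020 and 0.034, limma). *Ubqln1* was lost without any 1 of the libraries (adjusted p of 0.064 to 0.21), and *Ubqln4* without 2.8 mM replicate 1 or 16.8 mM replicate 2 (0.096 and 0.076). Without the 10 highest transcripts in the library size both were lost, at log2 fold changes of -0.14 for *Ubqln4* and -0.05 for *Ubqln1* (adjusted p = 0.14 and 0.45, limma).

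Upstream of the proteasome, 1 of 5 tested genes for ubiquitin and its E1 enzymes was higher, 20% beside 10.7% of all transcripts. This was *Uba1*, the E1 enzyme that charges ubiquitin, from 8.24 and 7.74 to 10.5 and 10.4 RPKM (log2 fold change 0.37, adjusted p = 0.039, limma). Its call was kept without 2.8 mM replicate 1 and lost without each other library (adjusted p of 0.12 to 0.16). Of 6 tested genes for p97 and its cofactors, 2 were lower, 33.3% beside 22.8% of all transcripts, and 0 higher, beside 10.7%. The lower ones, *Ubxn1* and *Ufd1l*, had log2 fold changes of -0.52 and -0.29 (adjusted p = 0.023 and 0.045, limma). *Ufd1l* was lost without any 1 library (0.056 to 0.25) and *Ubxn1* without 16.8 mM replicate 2 (0.13), and without the 10 highest transcripts in the library size *Ubxn1* came to -0.23 and *Ufd1l* to -0.04 (adjusted p = 0.12 and 0.62, limma).

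Of the 11 ERAD genes, all tested, 7 were lower, 63.6% beside 22.8% of all transcripts, and 0 were higher in limma. None was higher at an unadjusted p under 0.05 or in voom, and their median log2 fold change was -0.49. With libraries centred 1 was higher and 7 lower, beside 21.1% and 26.7% of all transcripts. *Derl3*, a channel component that the unfolded protein response induces, went from 4.47 and 4.62 to 1.23 and 1.05 RPKM, a log2 fold change of -1.63 (SE 0.09, adjusted p = 1.2e-04, limma). *Sel1l*, the adaptor of the membrane ligase, went from 5.58 and 5.53 to 2.66 and 2.62 RPKM, a log2 fold change of -0.95. *Derl1*, *Herpud1*, *Edem1* and *Derl2* had log2 fold changes of -0.85, -0.77, -0.65 and -0.49. *Derl2* was lost without 16.8 mM replicate 2 (adjusted p = 0.057, limma).

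**Figure D5:**
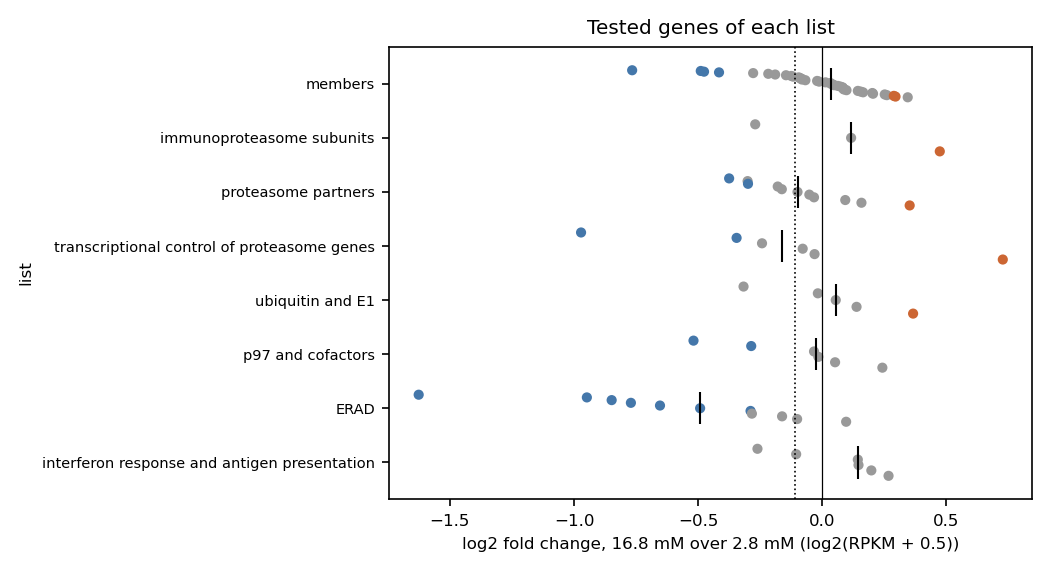
Log2 fold change between 16.8 mM and 2.8 mM glucose (x axis, on the log2(RPKM + 0.5) scale) of each tested gene by list (y axis), with orange for higher, blue for lower and grey for genes that did not pass, a bar at the median of a list and a dotted line at the median of all transcripts, -0.11. The members lie around 0 with a median of 0.03, while the ERAD list has a median of -0.49.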

How the data were processed

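RNA-seq of whole islets from pooled mice was measured in 2 libraries at 2.8 mM and 2 at 16.8 mM glucose. The values were RPKM made by the authors and deposited as 1 table. The submitters' processing notes name STAR, bedtools, DESeq and the mm9 build, without versions, and whether reads were counted by strand is not given in the sources used here. Whole reads within 0.15 of a read were recovered when RPKM was multiplied by the span of the gene with introns and by the depth, in 85.2 to 86.0% of values, beside 36.9 to 38.1% with exon length. Gene spans from GENCODE vM1 on NCBIM37 were found for 91.8% of transcripts. All columns of sample values were used.

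The 33923 entries held 28047 distinct transcripts, each counted once. Those whose mean reached 1 RPKM were tested as log2(RPKM + 0.5) with limma 3.58.1 (R 4.3.3) with a variance trend and Benjamini-Hochberg adjustment over 7867 transcripts. The added 0.5 understates changes of low genes. Voom was run on reconstructed reads with a mean of at least 20. Tables and plots were made with Python 3.11.15, pandas 2.3.3, numpy 2.4.6 and matplotlib 3.10.9. The fit was tested on simulated data. Alternatives were other scalings, filters, added constants, entry choices, the replicate number as a term, and each library left out.

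Every member was named, with the genes of fixed lists that passed the threshold and the immunoproteasome subunits, except 1 list gene that is not reported here. The members and lists were chosen with earlier results of these data known. Promoter sequences came from RefSeq on GRCm38.p6, a different build from the gene coordinates.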

Additional observations from a re-analysis of the deposited data

How the results depend on the processing

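Of the alternatives that tested them, the calls of *Psmg1* (19) and *Psmg2* (18) were kept in each, while those of *Psma5*, *Psmd12*, *Psmc5* and *Psme3* were lost in 7, 8, 4 and 6 of 19. When each library was left out in turn, members higher numbered 0 to 2, members lower 2 to 4, all transcripts higher 714 to 904 and lower 1059 to 1865, and the members' median ran from -0.081 to 0.147. With 2 libraries in a group the spread is poorly known, and a lone library was there assumed to vary like the other group.

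The reference counts were 2 members higher and 4 lower, and 838 and 1790 of all transcripts, at a members' median of 0.035. Without the variance trend 1 member was higher, as with 0.1 RPKM added, and 4 were higher with 1 RPKM added or with all entries kept. With 1 entry per gene 0 were higher, and 0 without a minimum RPKM (limma), beside 3 lower. At an adjusted p of 0.01 the counts were 0 and 2 for members and 430 and 761 for all. At an unadjusted p under 0.05, 4 members were higher and 5 lower (limma), and no share over all transcripts was taken at that threshold. At least 1 RPKM in each library gave 3 higher.

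Quantile normalization gave 8 members and 1576 of all transcripts higher, and centring 9 and 1662. The library size without the 10 highest transcripts gave 21 and 2631 higher, 2 and 772 lower, and a median of 0.323. Those 10 transcripts held 30.1 and 32.3% of summed RPKM at 2.8 mM and 43.4 and 45.1% at 16.8 mM, whereas the 10 coding genes of most reads held 5.87 to 9.72% of reads. Leaving out the latter, an alternative chosen after seeing the data, gave 4 members higher and 3 lower, 921 and 1384 of all, and a median of 0.079, and *Psme3* had an adjusted p of 0.053 (limma). Voom gave 5 and 8 members and 2456 and 5335 of 18282 transcripts.

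The groups share replicate numbers, but deviations of equal numbers correlated at 0.31 over only 2 pairs and no label gives a shared batch, so the numbers were not shown to pair the libraries. With the replicate block 3 members were higher and 7 lower, and 1232 and 2835 of all transcripts, and in voom with the block 8 and 13, and 3328 and 7145.

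None of the genes whose log2 fold change turned sign had passed in the reference fit, and after the turn *Psmc6* and *Psmd7* passed without the 10 highest transcripts (adjusted p = 0.036 and 0.040, limma). Without the 10 highest transcripts, *Psma3* came to 0.11, *Psma6* to 0.17, *Psma7* to 0.22, *Psmb2* to 0.11, *Psmc6* to 0.24, *Psmd10* to 0.024, *Psmd13* to 0.070, *Psmd4* to 0.20, *Psmd5* to 0.13, *Psmd7* to 0.27, *Psmf1* to 0.091 and *Psmg3* to 0.16. Centring brought *Psma7* to 0.016, *Psmc6* to 0.063, *Psmd4* to 0.0015, *Psmd7* to 0.071 and *Psmg3* to 0.0017, quantile normalization brought *Psmc6* to 0.060 and *Psmd7* to 0.05, and the size by reads brought *Psmc6* to 0.020 and *Psmd7* to 0.030. With a library left out the ranges were -0.053 to 0.18 for *Psma4*, -0.17 to 0.037 for *Psma7*, -0.085 to 0.17 for *Psmb1*, -0.031 to 0.21 for *Psmb3*, -0.08 to 0.15 for *Psmb6*, -0.075 to 0.033 for *Psmc6*, -0.021 to 0.19 for *Psmd3*, -0.17 to 0.0057 for *Psmd4*, -0.094 to 0.068 for *Psmd7*, -0.043 to 0.14 for *Psme1*, -0.11 to 0.18 for *Psme2*, -0.13 to 0.16 for *Psme2b*, -0.23 to 0.066 for *Psmg3* and -0.051 to 0.28 for *Psmb10*. The cause of these turns was not tested.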
